A study of Homo sapiens with 6 samples.

Results

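The genes described here are 10 interleukins and inflammatory cytokines, chosen by symbol from the 19470 genes of a count table of HCCC9810 cells: IL1A, IL1B, IL1RN, IL6, IL11, IL18, IL24, IL32, LIF and CSF1. HCCC9810 is an established human cholangiocarcinoma (CCA) cell line with wild type genotype. The cells were given isolinderalactone (ILL), a sesquiterpenoid lactone from plants, at 20 μM for 24 h, or the vehicle DMSO for 24 h as control, and mRNA-seq was made from 3 libraries of each group. All of these genes are in the table, and all 10 passed the filter on low counts that left 13066 genes to test. The labels do not say whether libraries of a group came from separate cultures, so p-values measure the spread between these libraries, which may be technical.

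Cytokines are secreted proteins by which cells signal to each other and to themselves. IL-1α and IL-1β, encoded by IL1A and IL1B, both activate the receptor IL1R1 with its partner IL1RAP, while the product of IL1RN occupies the same receptor without activating it. IL-6, IL-11 and LIF each bind a receptor chain of their own and then share the signaling chain gp130, which activates JAK kinases and STAT3. IL-18, which epithelial cells hold as an inactive precursor, is cut by caspase-1, as is IL-1β. IL-24 belongs to the IL-10 family, IL-32 resembles no other cytokine family, and CSF1 is the growth factor of macrophages. In biliary tumors IL-6 is known as a growth factor that the tumor cells can make for themselves.

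With ILL, the IL-1 genes, IL24, IL32, IL6 and CSF1 were higher, IL11 was lower, LIF rose slightly and IL18 did not pass the test. A gene was called differentially expressed (DEG) where the adjusted p was below 0.05 and expression changed over 2-fold, up or down (a ratio over 2 or below 0.5), with p adjusted over all genes in edgeR's quasi-likelihood fit. By this rule 7 of the 10 genes were DEGs higher with ILL, against 12.5% of all genes tested, and 1 was a DEG lower with ILL, against 11.4%. The median log2 fold change of the 10 was 1.52, and that of all genes tested was -0.0012. The 10 genes were chosen with earlier results of these data known, so the counts and medians given here describe them and are no independent test. In 8 of the genes all ILL libraries lay above all control libraries, which was so for 37.5% of the genes tested, and in IL11 they lay below, as for 38% of the genes tested. The groups did not overlap in either direction in 75.4% of the genes tested. At an adjusted p under 0.05 alone, 8 were higher, against 36.2% of the genes tested, and 1 was lower, against 36.9%, so most of the table moved by this looser rule. Together the 10 genes held 670.503 to 704.712 CPM (counts scaled to library size by edgeR's TMM method) in control libraries and 1647 to 1697 CPM with ILL.

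**Figure D1:**
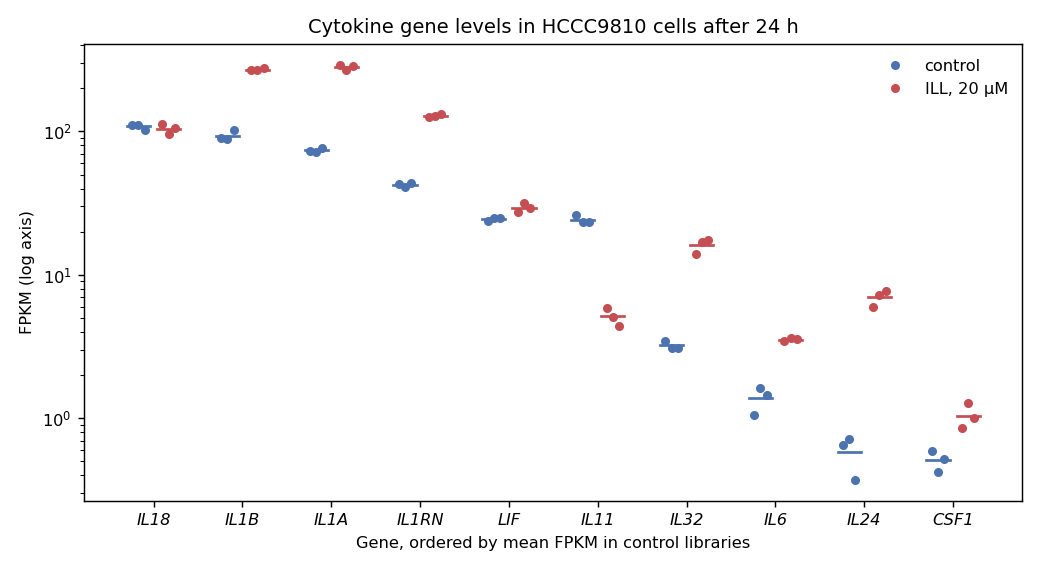
FPKM on a log axis of each cytokine gene in each library, blue for control and red for ILL at 20 μM, with 3 libraries a group; short lines mark group means. IL1A, IL1B and IL1RN lie near the top of both groups and are higher with ILL, IL11 is lower, and IL18 overlaps.

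Promoter sequences from RefSeq (GRCh38.p14) were found for 7 of the 10 genes, and the 250 bases before each annotated start were searched on both strands. The AP-1 motif, TGACTCA, was in a window of IL1A, IL1RN and IL11, against 4.28% of the 10482 tested genes that have a window. The NF-κB element was in windows of IL6 and IL32 (8.31% of tested genes), the cyclic AMP element TGACGTNA in IL32 (4.98%), and the ATF4 element TGATGNAA in none of the 7 (2.33%). The 5 windows below are the ones that hold a match in these genes; a second IL1A window, which overlaps the one shown, holds 2 AP-1 matches. They are given 5′ to 3′ on the gene's strand, with the matched letters in capitals, and a match on the other strand appears as its reverse complement. The IL1A, IL1RN and IL11 windows are shown because the same AP-1 letters occur before genes that rose with ILL and before IL11, which fell. The IL6 and IL32 windows hold no AP-1 match and are shown for the NF-κB element. A match is a description of the letters and not of a bound site.

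The IL1A window is chr2:112784494-112784743 on the minus strand, with the AP-1 letters starting 12 bases before the start.
IL1A: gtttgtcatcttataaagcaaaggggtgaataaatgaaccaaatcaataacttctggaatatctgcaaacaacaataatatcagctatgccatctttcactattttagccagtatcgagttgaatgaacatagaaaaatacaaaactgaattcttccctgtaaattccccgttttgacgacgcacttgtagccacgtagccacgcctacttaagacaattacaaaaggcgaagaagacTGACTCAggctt

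The IL1RN window is chr2:113117721-113117970 on the plus strand, 1 of 3 windows of this gene, with the AP-1 letters starting 223 bases before the start.
IL1RN: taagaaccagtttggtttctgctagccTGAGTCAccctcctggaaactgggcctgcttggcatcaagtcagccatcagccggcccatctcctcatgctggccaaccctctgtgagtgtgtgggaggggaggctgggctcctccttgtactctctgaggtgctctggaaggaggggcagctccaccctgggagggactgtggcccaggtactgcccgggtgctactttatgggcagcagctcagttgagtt

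The IL11 window is chr19:55370464-55370713 on the minus strand, with the AP-1 letters starting 96 bases before the start.
IL11: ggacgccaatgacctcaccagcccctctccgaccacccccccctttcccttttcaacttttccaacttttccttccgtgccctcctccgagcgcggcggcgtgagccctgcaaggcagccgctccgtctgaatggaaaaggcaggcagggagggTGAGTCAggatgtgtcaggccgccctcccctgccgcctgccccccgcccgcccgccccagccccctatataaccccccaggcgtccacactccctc

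The IL6 window is chr7:22726950-22727199 on the plus strand, with the NF-κB element starting 73 bases before the start.
IL6: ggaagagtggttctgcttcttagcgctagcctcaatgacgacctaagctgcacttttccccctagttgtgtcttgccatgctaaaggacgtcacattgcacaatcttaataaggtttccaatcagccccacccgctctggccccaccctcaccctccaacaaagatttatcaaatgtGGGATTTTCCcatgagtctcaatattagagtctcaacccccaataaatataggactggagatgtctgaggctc

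The IL32 window is chr16:3065153-3065402 on the plus strand, with the cyclic AMP element starting 121 bases before the start and the NF-κB element matched at overlapping positions, 99 and 98 bases before it.
IL32: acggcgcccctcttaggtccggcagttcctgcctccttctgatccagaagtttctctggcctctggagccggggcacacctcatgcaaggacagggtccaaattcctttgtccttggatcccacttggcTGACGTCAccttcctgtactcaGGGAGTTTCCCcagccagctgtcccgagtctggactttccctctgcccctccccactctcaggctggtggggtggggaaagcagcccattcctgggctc

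IL1A, the agonist that is active without cleavage and is set free by damaged epithelial cells, had 5776, 5175 and 5595 counts in control libraries 1 to 3 and 21868, 19950 and 21448 with ILL. The groups were far apart, and the lowest ILL library held more counts than any control library. Its level was 151 ± 5.93 CPM (SD, n = 3) in controls and 606 ± 23.4 CPM (SD, n = 3) with ILL, a change in log2 units of 2.001 ± 0.05 (SE), with an edgeR adjusted p of 1.4e-20. Of all genes tested, 3.73% had a log2 fold change at least as high. In RNA from a whole culture, more cells with the message and more message per cell cannot be told apart. IL1A lies on chromosome 2 of GRCh38 from 112773915 to 112784590.

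IL1B, the agonist that needs cleavage, had 5319, 4746 and 5578 counts in control libraries and 14980, 14893 and 15529 with ILL, again without overlap. It rose from 143 ± 12.6 CPM to 435 ± 8.32 CPM (SD, n = 3 each), a change in log2 units of 1.60 ± 0.06 (SE), with an edgeR adjusted p of 5.9e-18. IL1RN, the antagonist, had 4003, 3509 and 3774 counts in controls and 11166, 11308 and 11716 with ILL. The antagonist thus also lay higher in every ILL library, at 327 ± 8.10 CPM against 103 ± 3.43 CPM (SD, n = 3 each), a change in log2 units of 1.67 ± 0.05 (SE), with an edgeR adjusted p of 3.7e-19.

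The balance of agonist and antagonist messages was compared as a ratio of FPKM within each library, which no scaling of libraries changes. IL1A was 1.70, 1.74 and 1.75 times the level of IL1RN in control libraries 1 to 3, and 2.31, 2.08 and 2.16 times with ILL. All ILL libraries lay above the controls, with a mean difference of 0.33 on the log2 scale (two-sided exact permutation test, p = 0.1, the smallest that 3 against 3 libraries allow). IL1B was 2.10, 2.14 and 2.34 times the level of IL1RN in controls and 2.12, 2.08 and 2.09 times with ILL. These ratios overlapped, with a mean log2 difference of -0.06 (p = 0.2 from the same exact permutation test).

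IL1A, IL1B and IL1RN belong to a cluster of 9 genes that spans 360.1 kb of chromosome 2, and the cluster was read in its order along the chromosome. The agonist genes are neighbors, 45.2 kb apart, and 6 related genes separate IL1B from IL1RN: IL37, IL36G, IL36A, IL36B, IL36RN and IL1F10. These 6 genes held between 0 and 35 counts in every library. Of them IL37 and IL36RN were tested, with log2 fold changes of -0.16 (adjusted p = 0.829) and 0.26 (adjusted p = 0.632) from the edgeR test. IL36B had 0, 6 and 2 counts in controls and 10, 14 and 17 with ILL, and IL36G had 2, 0 and 0 against 11, 2 and 10. Just outside the cluster, CKAP2L, a mitotic spindle gene beside IL1A, had a log2 fold change of -2.92, NT5DC4 beyond it had 1.57 and was a DEG, and PSD4 beside IL1RN had 0.61. These neighbors were named after their values were seen.

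**Figure D2:**
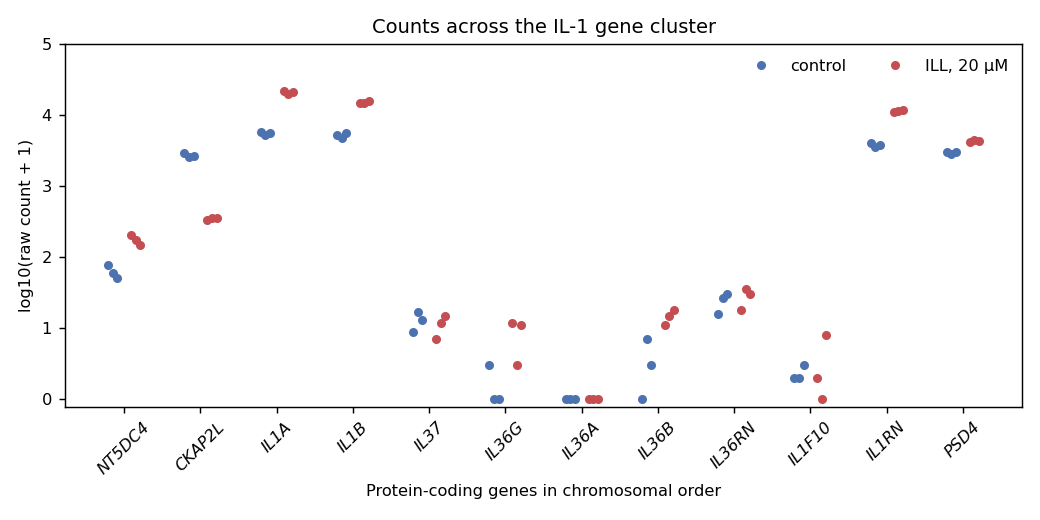
Raw counts as log10(count + 1) of the protein-coding genes in and beside the IL-1 cluster, in chromosomal order and not to scale, with 3 control libraries in blue and 3 ILL libraries in red. IL1A, IL1B and IL1RN have at least 3509 counts in every library and are higher with ILL, the 6 genes between them have at most 35 counts, and CKAP2L is lower with ILL.

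IL18, the precursor cytokine of epithelial cells, had 4826, 4334 and 4096 counts in control libraries and 4579, 3877 and 4359 with ILL. The groups overlapped, at 121 ± 4.64 CPM and 123 ± 9.23 CPM (SD, n = 3 each). The log2 fold change was 0.02 with a 95% interval from -0.10 to 0.14 (adjusted p = 0.794 from the edgeR test). A change of more than 0.14 in either direction therefore lay outside the interval. A gene on the opposite strand, AP002884.3, overlaps IL18, and the sources used here do not say whether reads were counted by strand.

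Of IL6, IL11 and LIF, which signal through gp130, IL11 fell. It had 2331, 1890 and 1930 counts in control libraries and 502, 431 and 377 with ILL, and no ILL library came near the controls. From 56.1 ± 3.40 CPM to 12.5 ± 1.78 CPM (SD, n = 3 each), IL11 fell by 2.16 log2 units (SE 0.09), with an edgeR adjusted p of 1.0e-16. Of all genes tested, 2.98% had a log2 fold change as low.

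IL6 had 67, 95 and 86 counts in control libraries and 208, 218 and 216 with ILL. The groups did not overlap, at 2.29 ± 0.505 CPM and 6.15 ± 0.198 CPM (SD, n = 3 each), and the change in log2 units was 1.43 ± 0.21 (SE), with an edgeR adjusted p of 1.6e-06. With limma on log2 of FPKM plus 1, a scale that understates changes of low genes, the IL6 value was 0.94 and under the fold change cutoff. IL6 overlaps STEAP1B and AC073072.1, both on the opposite strand.

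LIF had 3798, 3597 and 3656 counts in control libraries and 4147, 4718 and 4403 with ILL. The ILL libraries lay above the controls by a small margin. LIF rose by 0.33 ± 0.06 (SE) log2 units, with an edgeR adjusted p of 2.3e-05, and this rise was under the fold change cutoff, so LIF was no DEG. LIF-AS1 and AC004264.1, on the opposite strand, overlap it. Its neighbor OSM, the gene of another gp130 cytokine, had 0 counts in all 6 libraries. IL6, IL11 and LIF therefore had log2 fold changes of 1.43, -2.16 and 0.33, and their 95% intervals did not overlap each other.

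IL24, a cytokine of the IL-10 family that is studied for its effects on tumor cells, had the largest change of the 10. It had 50, 50 and 26 counts in control libraries and 431, 518 and 554 with ILL. From 1.15 ± 0.364 CPM in controls it rose to 14.4 ± 1.85 CPM with ILL (SD, n = 3 each), a change in log2 units of 3.64 ± 0.19 (SE), with an edgeR adjusted p of 1.4e-14. Of the genes tested, 0.589% had a log2 fold change at least as high. IL24 is on chromosome 1 from 206897443 to 206904139, next to IL20, IL19 and IL10, which are of the same family. Those family members were almost silent: IL19 had 0 counts in every library, IL10 had 1 count in 1 library, and IL20 had 1 and 4 counts in ILL libraries 2 and 3 and 0 elsewhere. On the other side of IL24, FCMR, a receptor for IgM named after its values were seen, was a DEG with 82, 84 and 94 counts in controls and 202, 191 and 231 with ILL.

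IL32, a cytokine that epithelial cells make in inflammation, had 122, 99 and 100 counts in control libraries and 465, 559 and 583 with ILL. It rose by 2.39 log2 units (95% interval 2.10 to 2.69), with an edgeR adjusted p of 1.6e-13. Its level per length was 3.47, 3.10 and 3.09 FPKM in control libraries and 14.0, 16.9 and 17.5 FPKM with ILL, with no overlap. IL32 overlaps the noncoding gene AC108134.3 on the other strand and a small nuclear RNA pseudogene on its own strand.

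CSF1 had 100, 65 and 81 counts in control libraries and 135, 202 and 160 with ILL. The groups lay close together but did not overlap, at 2.24 ± 0.365 CPM and 4.77 ± 1.02 CPM (SD, n = 3 each). The change in log2 units was 1.09 ± 0.24 (SE), only just past the fold change cutoff, with an edgeR adjusted p of 0.00022. Without control replicate 2 it was 0.96 and without ILL replicate 2 it was 0.91, both under the cutoff. CSF1R, the receptor of CSF1, had 0, 1 and 5 counts in controls and 0, 0 and 1 with ILL, so it was not tested.

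**Figure D3:**
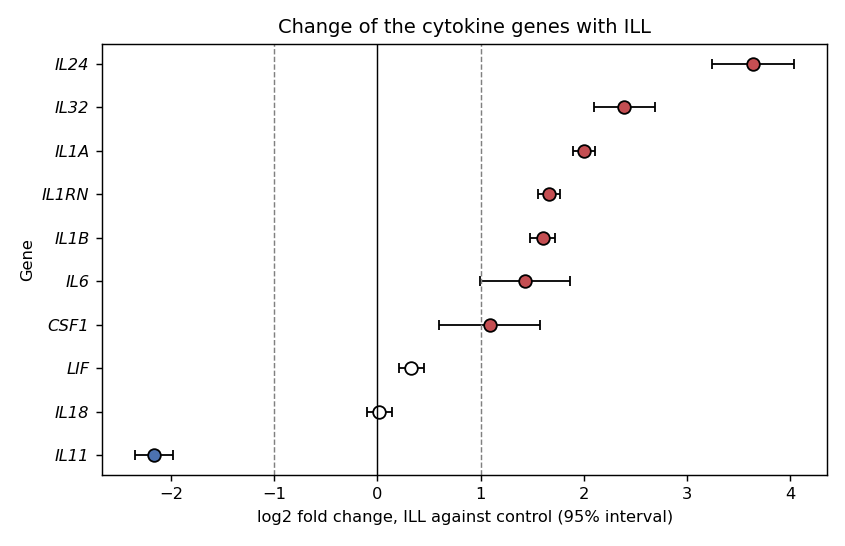
Log2 fold change of each cytokine gene, ILL against control, from edgeR's fit of 3 against 3 libraries, with bars for the 95% interval. Filled points are DEGs, red higher and blue lower with ILL, open points are not, and dashed lines mark the fold change cutoff; IL24 at 3.64 and IL11 at -2.16 are the ends.

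Levels of different genes were compared per length, as FPKM. In controls the order was IL18 at 108 ± 4.63, IL1B at 93.4 ± 7.78, IL1A at 73.7 ± 2.58 and IL1RN at 42.6 ± 1.29 FPKM (SD, n = 3). LIF at 24.6 and IL11 at 24.2 FPKM came next and overlapped each other. IL32 at 3.22 and IL6 at 1.38 FPKM followed, and IL24 at 0.583 and CSF1 at 0.515 FPKM overlapped at the low end. All other neighbors in this order had ranges that did not overlap. With ILL the order changed, to IL1A at 281 ± 12.5 and IL1B at 270 ± 4.94 FPKM, which overlapped, then IL1RN at 129 ± 2.80 and IL18 at 105 ± 8.49 FPKM. IL24 passed IL11, at 6.96 ± 0.868 against 5.15 ± 0.749 FPKM (SD, n = 3 each), and these did not overlap. The 3 IL-1 genes took 57.0% to 59.98% of the counts of the 10 genes in control libraries and 81.4% to 82.1% with ILL.

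The receptors were examined because the cytokines can act on the cells that make them. Of 19 receptor and binding protein genes, 16 were tested, 7 were DEGs higher and 1 was a DEG lower with ILL, against 12.5% and 11.4% of all genes, and their median log2 fold change was 0.52. For IL-1, the ligand genes rose and no gene of the receptor chains or the decoy did. IL1R1, which carries the signal, had 513, 490 and 378 counts in controls and 352, 420 and 359 with ILL, and its log2 fold change of -0.22 did not pass (95% interval -0.48 to 0.04, adjusted p = 0.119 from the edgeR test). Its partner IL1RAP fell by 0.81 (adjusted p = 5.7e-10 from edgeR), under the cutoff. IL1R2, a decoy that binds IL-1 without signaling, fell by 1.57 and was a DEG, with 315, 304 and 379 counts in controls and 117, 61 and 145 with ILL. IL1RL1, the receptor of IL-33, had the largest increase of the list, at 3.14 on the log2 scale.

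IL24 and the receptor genes of IL-24 were all higher with ILL. IL-24 binds IL20RB paired with IL20RA or with IL22RA1. IL20RB had 193, 206 and 172 counts in controls and 847, 910 and 888 with ILL, a log2 fold change of 2.28 (adjusted p = 3.1e-15 from the edgeR test). IL22RA1 rose by a log2 fold change of 2.17 and was a DEG, while IL20RA rose by 0.69, under the cutoff.

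For the gp130 cytokines, IL6R, the receptor chain of IL-6, rose with its ligand by a log2 fold change of 2.37, at 24, 31 and 40 counts in controls and 185, 192 and 95 with ILL. IL11RA, the chain of IL-11, was at 53, 58 and 59 counts against 44, 45 and 66, and its value of -0.07 did not pass (95% interval -0.77 to 0.63). LIFR had a log2 fold change of -0.27 that did not pass either (adjusted p = 0.161 from edgeR), and IL6ST, which encodes gp130, rose by 0.23. OSMR, a further partner of gp130, rose by 1.13 and was a DEG. For IL18, the receptor chain IL18R1 rose by a log2 fold change of 1.74 from 12, 9 and 13 counts to 21, 52 and 36. IL18RAP, the second chain that IL-18 needs, had at most 1 count in any library. The IL18 level was 105, 176 and 119 times that of its inhibitor IL18BP in controls and 295, 112 and 126 times with ILL, which overlapped (p = 0.6 from a two-sided exact permutation test). The mean log2 difference of this ratio was 0.31, and -0.13 without ILL replicate 1.

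**Figure D4:**
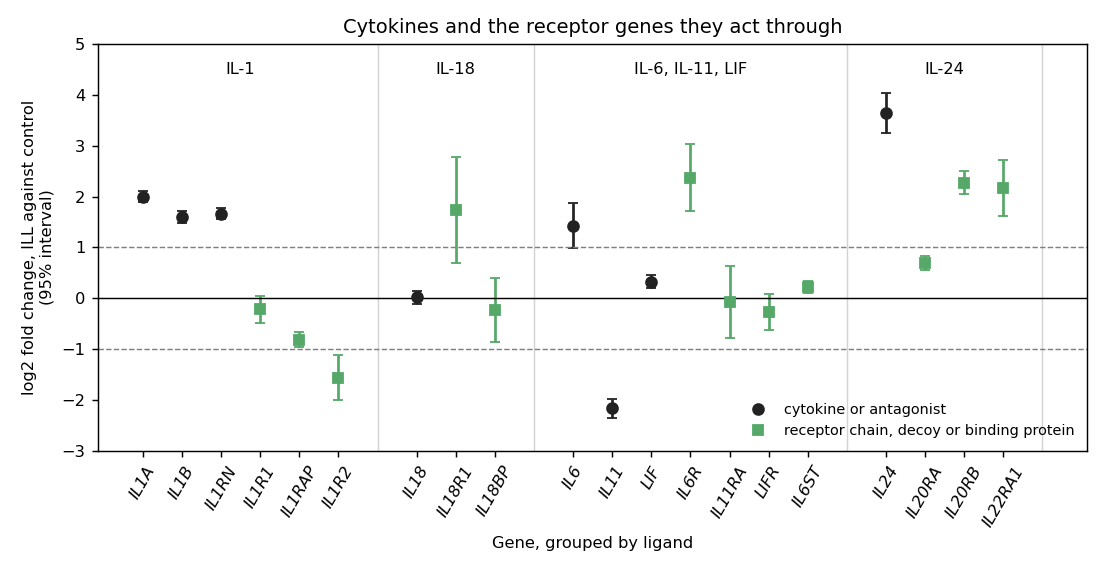
Log2 fold change, ILL against control, of the cytokine genes (black circles) and of the receptor chains, decoys and binding proteins they meet (green squares), with 95% intervals from edgeR's fit and dashed lines at the fold change cutoff. The IL-1 ligands are above 1 while IL1R1, IL1RAP and IL1R2 are below 0, and IL24 lies above 1 with IL20RB and IL22RA1.

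Genes that process or release the cytokines were also read. Of 21 such genes 16 were tested, 5 were DEGs higher and 1 was a DEG lower with ILL, against 12.5% and 11.4% of all genes tested, and the median log2 fold change was 0.40. CASP1, the protease that cuts IL-1β and IL-18, rose by 1.54 (adjusted p = 1.0e-09 from the edgeR test), with 134, 158 and 151 counts in controls and 435, 420 and 380 with ILL. CARD16 rose by 1.25, but its sequence is close to that of CASP1 and reads may be shared between them. NLRP1, an inflammasome sensor of epithelial cells, rose by 2.16. The DEG that fell was NLRP3, another sensor, named after its values were seen, with 40, 20 and 41 counts in controls and 6, 1 and 2 with ILL. GSDMD, the pore through which IL-1β leaves the cell, had a log2 fold change of 0.12 that did not pass (adjusted p = 0.127 from edgeR).

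Below the IL-1 receptor, 17 genes were tested, of which 3 were DEGs higher and 1 was a DEG lower, with a median of -0.06. Among all genes tested the shares were 12.5% and 11.4%. The adaptor MYD88 rose by a log2 fold change of 1.19 and the kinase gene IRAK2 by 2.43. The third, PELI2, named after its values were seen, had 10, 0 and 0 counts in controls and 11, 11 and 17 with ILL. The count called higher was 2, not 3, without control replicate 2 or 3 or any 1 of the ILL replicates, and 2 with the DESeq2 test. TIFA fell by 1.10, and without control replicate 2 by 0.99, under the cutoff.

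Below gp130, all 22 genes of the JAK-STAT list were tested, with 1 DEG higher, STAT5A at a log2 fold change of 1.74, 1 DEG lower and a median of 0.23, against 12.5% called higher and 11.4% lower among all genes. The DEG that fell was CISH, a feedback inhibitor named after its values were seen, at 60, 30 and 48 counts in controls and 13, 7 and 21 with ILL. Of 20 acute phase and STAT3-responsive genes, 14 were tested, with 3 DEGs higher and 2 lower, against 12.5% and 11.4% of all genes, and a median of 0.60. PIM1, CEBPB and BCL3 were DEGs higher, with log2 fold changes of 1.54, 1.497 and 1.10. SAA1 fell by 1.27 and SAA2, which shares near-identical sequence with it, by 1.26. SAA2 was no DEG without any of the control replicates, or without ILL replicate 1 or 2.

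Of the other 47 interleukins and cytokines listed, 34 did not pass the filter on low counts and 16 had 0 counts in every library, against 6404 and 3204 of all 19470 genes. Among the 13 tested, 4 were DEGs higher and 2 were DEGs lower, against 12.5% and 11.4% of all genes tested, and the median log2 fold change was 0.51. IL23A, a subunit of IL-23, rose by 2.57, from 48, 34 and 27 counts to 194, 208 and 214. FLT3LG rose by 1.19, and by 0.95 without control replicate 2, while KITLG, the ligand of the KIT receptor, fell by 1.47. The other DEG that fell was CNTF, a further gp130 cytokine named after its values were seen, with 41, 41 and 36 counts in controls and 10, 13 and 15 with ILL. TNF, the cytokine best known beside IL-1, had 1, 4 and 0 counts in controls and 5, 10 and 1 with ILL, and was not tested.

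Many cytokine messages carry the pentamer AUUUA in the 3′ UTR, where proteins that set message decay can bind. In GENCODE release 29 transcripts, the pentamer was counted in 1 transcript of each gene. IL6 had 6 in 432 bases, IL1B 6 in 613, IL11 9 in 1621, IL1A 5 in 1155, LIF 7 in 3207, CSF1 4 in 2157 and IL24 3 in 809. IL1RN, IL18 and IL32 had 0. So 7 of the 10 genes had at least 3 pentamers, against 41.8% of the 12756 tested genes with a 3′ UTR. This count grows with length, and 5 of the 10 had at least 3 per kb, against 27% of those tested genes. The genes with pentamers included IL24, with a log2 fold change of 3.64, and IL11, with -2.16. Among those without, IL32 and IL1RN rose, by 2.39 and 1.67.

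All 15 genes listed for cytokine message stability were tested. The list holds regulators and also NFKBIZ, which is not one. It had 2 DEGs higher, 0 lower at this cutoff and a median log2 fold change of 0.06. The share called higher was near the 12.5% of all genes tested, and 11.4% of all genes tested were called lower. ZFP36, whose product binds AUUUA repeats and starts decay, rose by 1.76 (adjusted p = 1.7e-17 from the edgeR test), from 952, 923 and 977 counts to 3057, 3163 and 3014. DUSP1, which switches off the p38 kinase, rose by 1.34. At an adjusted p under 0.05 alone, 6 of the list were higher and 5 lower, against 36.2% and 36.9% of the genes tested. KHSRP and HNRNPD, named after their values were seen, had log2 fold changes of -0.98 and -0.97, just short of the cutoff. Without ILL replicate 2 there were 2 DEGs lower.

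Total counts were between 34282764 and 37758569 per library. The cells carried epithelial and biliary markers in every library, with KRT7, KRT8, KRT18, KRT19 and EPCAM among them. Of 14 leukocyte markers 4 were tested, with 2 DEGs higher and 0 lower, against 12.5% and 11.4% of all genes tested. The list summed to 39.1 to 44.6 CPM in controls and 118 to 124 CPM with ILL. Most of this was CD68, at 36.0 to 40.9 CPM in controls and 111 to 117 CPM with ILL. The DEGs were CD68, which lysosomes of other cells also carry, and CD4. CD14 and LYZ, with log2 fold changes of -0.72 and 0.78, did not pass (adjusted p = 0.351 and 0.0578 from the edgeR test). CD3E had 3 counts in ILL replicate 3 and 0 elsewhere. The 10 markers other than CD68, CD4, LYZ and CD14, a choice made after the values were seen, summed to 1, 2 and 7 counts in controls and 45, 6 and 7 with ILL. In ILL replicate 1, ITGAM had 16 of these counts, FCGR3A 11, PTPRC, the common leukocyte antigen, 9 and TYROBP 8. ITGAM had 1 count in each control library and 6 and 2 in ILL replicates 2 and 3. FCGR3A and TYROBP had 0 in those libraries, and PTPRC 0 or 1. Without ILL replicate 1 the counts of cytokine genes called were again 7 higher and 1 lower. Fibroblast and endothelial markers summed to 13.2 to 15.6 CPM in controls and 18.6 to 20.4 CPM with ILL. Of the 5 tested, 1 was a DEG higher and 0 were lower, against 12.5% and 11.4% of all genes tested. That DEG was VWF, with only 2, 13 and 0 counts in controls and 25, 23 and 13 with ILL. The part of these markers in the results was not tested.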

How the data were processed

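RNA-seq of HCCC9810 cells with ILL or vehicle was analysed, with 3 libraries per group, grouped by the sample titles. The files deposited by the authors hold counts of reads for each gene symbol beside FPKM, with 1 column of each per library and no pooling; per the labels' processing notes GRCh38 and DESeq2 were used, and the aligner, counting program and strand setting are not given in the sources used here. Deposited FPKM values equal count divided by gene length and total count. A count divided by a whole-number length returned 100% of the nonzero values within 0.1%.

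Counts were filtered with filterByExpr, scaled by TMM and tested with edgeR 4.0.16 (R 4.3.3; quasi-likelihood, group only, Benjamini-Hochberg over 13066 genes), and standard errors are the log2 fold change divided by the root of F. The biological coefficient of variation was 0.0717, so the spread between libraries rather than depth sets the precision of most members, while genes of few counts have wide intervals. On simulated counts with 200 changed genes, 100% of these were called, with 2 false calls among 12971 genes. The changed genes all averaged over 200 counts and were moved by 2 log2 units, up or down. The simulation therefore does not cover genes of fewer counts and smaller changes, such as IL6 and CSF1. It also held far fewer changed genes than the 3120 DEGs of the data. Replicate pairs differed by more than counting noise (chi-square per degree of freedom 5.09 to 11.5). Alternatives were DESeq2 1.42.0, other scalings and filters, a replicate block, each library left out, no fold cutoff, and limma 3.58.1 on log2 FPKM. Members, lists and motifs were chosen with earlier results of these data known. Named genes are the members, the receptors and, of each related list, at most 3 DEGs at each end that average 1 CPM or more and whose groups do not overlap. Cell type markers and genes outside this rule, GSDMD, TNF, OSM and SAA2 among them, were also named. Positions and 3′ UTRs come from GENCODE 29, using the transcript with the best APPRIS level and then the longest 3′ UTR.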

Additional observations from a re-analysis of the deposited data

How the results depend on the processing

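With 1 library left out at a time, 6 to 7 cytokine genes were called higher. Limma on log2 FPKM called 5 with a pseudocount of 1 and 6 with 0.1, where CSF1 was under the FPKM filter, and 8 passed without the fold change cutoff. In each of these and the remaining alternatives 1 gene, IL11, was called lower. IL6 (0.94 with the pseudocount of 1) and CSF1 (0.96 without control replicate 2, 0.91 without ILL replicate 2) lost the cutoff. IL18, which passed in no fit, changed sign to -0.05079 by library size only, to -0.05259 and -0.05305 in limma with pseudocounts of 1 and 0.1, and ranged from -0.02972 to 0.07609 with 1 library left out. In those left-out fits IL18BP ranged from -0.4157 to 0.06128 and IL11RA from -0.2817 to 0.03494. The count over all genes, 3120 DEGs, was 9547 without the cutoff and 1591 with limma at a pseudocount of 1. That limma fit called 3 receptors higher in place of 7, 3 processing genes in place of 5, 1 other cytokine in place of 4 and 0 JAK-STAT genes in place of 1. JAK-STAT genes called higher were 2 with DESeq2, and other cytokines called higher were 7 without a filter and 2 with at least 10 counts in every library. Genes of the stability list called lower were 2 by library size only and in both limma fits, in place of 0. Replicate numbers did not pair the samples, with correlations of deviations from -0.0605 to 0.00668 between same-numbered libraries, and with the replicate block 7 cytokine genes were called higher, 1 lower, and 3111 genes in all. Depth limits IL6, IL24, IL32 and CSF1 in controls, and the receptors of few counts, the most. The causes of these differences were not tested.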
